A study of Mus musculus with 6 samples.

Results

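A set of 10 genes of intestinal T cells, natural killer cells and their killing machinery was examined in the duodenum of mice with and without Atg7. The members are Cd3e, Cd8a, Cd4, Itgae, Gzma, Gzmb, Ccl5, Xcl1, Cd27 and Klrb1, chosen by name, and they make up 10 of the 19938 genes that the arrays measured under 1 symbol. A single probe set, the group of probes that the array summarises into 1 value, stood for each. RNA came from duodenum labelled as normal tissue, with 3 samples of genotype Apc+/- and 3 of genotype Apc+/-Atg7-/-, all on a C57Bl6 background, and each sample was read on 1 array. Both groups carry the Apc+/- genotype, so the comparison is of Apc+/-Atg7-/- with Apc+/-, and Apc wild-type mice are not part of it. Age, treatment, the part of Atg7 that was removed and the cells that lost it are not given in the sources used here. The series' title speaks of an immune response under Atg7 deficiency, and these genes ask whether transcripts of cytotoxic lymphocytes differ between the genotypes in tissue labelled normal.

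Intraepithelial lymphocytes are T cells lodged between the epithelial cells of the gut. Most of those in the small intestine carry CD8, hold on to the epithelium through the integrin CD103, store granzymes in cytotoxic granules and release chemokines when activated. Cd3e encodes a chain of the signalling complex of the T cell receptor. Cd8a and Cd4 encode the coreceptors that read MHC class I and class II, and Itgae encodes the CD103 chain, whose ligand is the epithelial adhesion molecule E-cadherin. Gzma and Gzmb encode granule proteases, Ccl5 and Xcl1 encode chemokines, and Cd27 encodes a costimulatory receptor of the tumour necrosis factor receptor family. Klrb1 encodes a lectin-like receptor, also called NKR-P1G, that belongs to the Nkrp1 family of natural killer cell receptors. Atg7 is the E1-like enzyme needed for autophagosome formation, and Apc restrains Wnt signalling.

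The stretches ahead of 4 of these genes are shown because their transcripts include the largest difference between genotypes (Klrb1), the next smallest p of the 10 (Xcl1) and both granzymes. Each is the 250 bases before the RefSeq transcription start in mouse build GRCm38.p6, written 5′ to 3′ on the strand of the gene, and such stretches were held for 7 of the 10 genes. Capitals mark the letters TGTGGT (the core bound by RUNX factors), TCACACC (the core bound by T-box factors) and GGAAGT (a core bound by ETS factors), each searched on both strands, and these 3 motifs do not contain one another.
Klrb1 (chr6:128723098-128723347, minus strand): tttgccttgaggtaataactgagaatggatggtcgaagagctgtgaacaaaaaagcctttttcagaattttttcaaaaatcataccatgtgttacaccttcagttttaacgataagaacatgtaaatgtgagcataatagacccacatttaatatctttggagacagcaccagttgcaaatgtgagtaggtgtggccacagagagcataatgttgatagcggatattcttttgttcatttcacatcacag
Xcl1 (chr1:164935523-164935772, minus strand): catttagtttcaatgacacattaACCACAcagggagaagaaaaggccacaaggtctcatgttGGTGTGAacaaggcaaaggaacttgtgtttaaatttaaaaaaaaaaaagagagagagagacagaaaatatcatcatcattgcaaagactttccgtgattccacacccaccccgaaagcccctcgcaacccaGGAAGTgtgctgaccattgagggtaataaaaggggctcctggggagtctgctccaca
Gzmb (chr14:56262335-56262584, minus strand): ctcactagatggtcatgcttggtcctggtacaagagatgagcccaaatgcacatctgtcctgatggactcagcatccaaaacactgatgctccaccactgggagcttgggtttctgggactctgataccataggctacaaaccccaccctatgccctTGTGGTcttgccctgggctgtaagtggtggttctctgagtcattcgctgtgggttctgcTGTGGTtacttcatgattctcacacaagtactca
Gzma (chr13:113100982-113101231, minus strand): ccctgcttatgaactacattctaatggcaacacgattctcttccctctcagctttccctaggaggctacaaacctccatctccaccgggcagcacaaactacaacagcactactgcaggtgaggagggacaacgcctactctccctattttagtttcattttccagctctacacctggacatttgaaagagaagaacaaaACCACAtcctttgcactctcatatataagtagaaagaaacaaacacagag
The Gzmb stretch holds TGTGGT at 93 and at 34 bases before the start, counted to the first letter of the motif. The Gzma stretch holds its reverse complement, ACCACA, at 50 bases before the start. In the Xcl1 stretch ACCACA lies at 227, GGTGTGA, the reverse complement of the T-box core, at 188 and GGAAGT at 57 bases before the start. None of these letters occur in the Klrb1 stretch shown. Of the stretches not shown, that of Cd3e held an ETS core at 18 bases before the start, and those of Cd8a and Cd27 held no match. Among the 7 stretches held, 3 had the RUNX core, 1 the T-box core and 2 the ETS core. Across 32851 stretches of the same length, 14% held the RUNX core, 3.33% the T-box core and 19.7% the ETS core on either strand. These matches describe letters and not binding.

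The genotype label was checked first. The Atg7 probe set read 7.05, 7.17 and 7.27 (log2 level) in Apc+/- replicates 1, 2 and 3 and 6.46, 6.65 and 6.78 in Apc+/-Atg7-/- replicates 1, 2 and 3, so all 3 Apc+/-Atg7-/- arrays lay lower. The log2 difference of -0.53 (SE 0.11) did not pass over all genes (limma, adjusted p = 0.242), and since the removed part of Atg7 is not given, probes outside it could still find transcript. Array medians lay between 6.43 and 6.56 (log2). Apc+/- replicate 1 had the lowest quality weight (0.417, where the others had 0.9 to 1.59). Apc+/-Atg7-/- replicate 1 was the 1 male, with Xist at 4.58 and Eif2s3y at 8.44, against Xist at 10.1 to 10.3 on the other 5 arrays. The main values without these arrays are given beside the results below. Intestinal epithelial markers were bright on every array, which does not tell normal tissue from tumour, with a mean log2 level over 9 of them of 11.08 to 11.25 on the Apc+/- and 11.10 to 11.17 on the Apc+/-Atg7-/- arrays.

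No gene of the 10 passed the test between genotypes, and the largest difference was a lower Klrb1 in Apc+/-Atg7-/- duodenum. In limma's moderated test with Benjamini-Hochberg adjustment over the 19938 genes, 0 of the 10 passed an adjusted p of 0.05, while 0.110% of all genes did in either direction (0.0702% higher and 0.0401% lower). At an unadjusted p under 0.05 there were 3 lower (Klrb1, Xcl1 and Cd27) and 0 higher, where 5.11% of all genes met that rule, 2.73% lower and 2.38% higher. Without moderation of the variances 0 of the 10 passed, as did 0 of all genes, so that fit called nothing. For 4 of the 10, these 3 and Cd4, every Apc+/-Atg7-/- array lay below every Apc+/- array, while 5.23% of all genes were separated in that direction and 4.81% in the other. By sign alone 8 of the 10 were lower, as were 56.8% of all genes, with a median log2 difference of -0.1 over the 10 and -0.018 over all genes. In RNA from whole tissue, fewer cells of a type and less RNA per cell cannot be told apart.

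**Figure D1:**
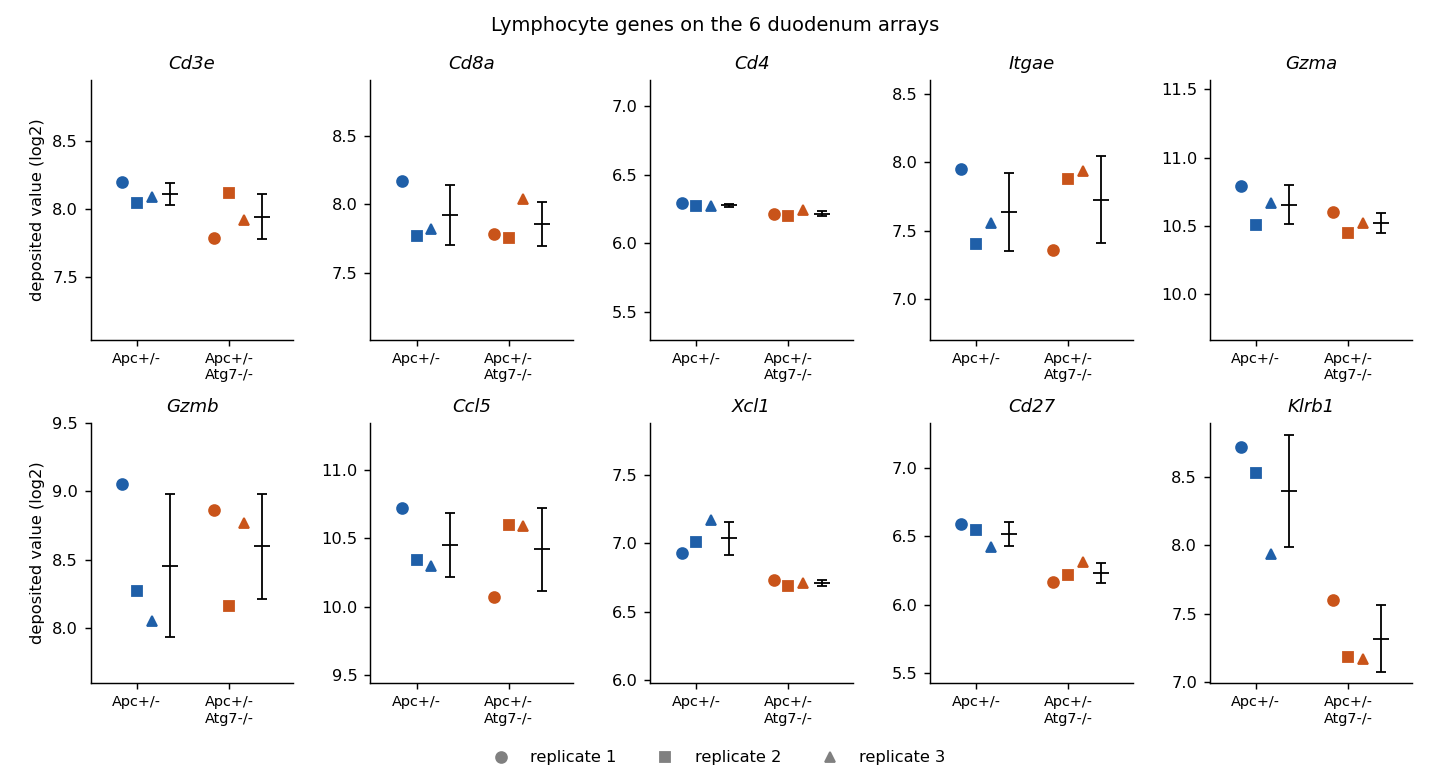
Deposited log2 level of each of the 10 genes (vertical axis, the same span of log2 units in every panel) on the 3 Apc+/- arrays (blue) and the 3 Apc+/-Atg7-/- arrays (orange), with the replicate number by symbol, and mean with SD beside each group. Klrb1 is separated by the widest gap, Xcl1, Cd27 and Cd4 by smaller ones, and the other 6 genes overlap.

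Klrb1 had the largest difference of the 10 genes between the genotypes. Its log2 level was 8.72, 8.53 and 7.94 in Apc+/- replicates 1, 2 and 3, and 7.60, 7.18 and 7.17 in Apc+/-Atg7-/- replicates 1, 2 and 3. The 3 Apc+/-Atg7-/- arrays lay below the 3 Apc+/- arrays, with 0.34 (log2) between the nearest 2 arrays of the genotypes. The means were 8.40 ± 0.40 and 7.32 ± 0.25 (log2, SD, n = 3), a log2 difference of -1.08 (SE 0.19, 95% interval -1.51 to -0.64). On the linear scale this is a level 2.11 times lower. It had the 36th smallest p of all genes (unadjusted p = 0.000263) and did not pass in limma after adjustment (adjusted p = 0.146). Without Apc+/- replicate 3, the lowest of its group, the difference was -1.30 and passed (limma, adjusted p = 0.0401). Without the male array it was -1.22 and without Apc+/- replicate 1 it was -0.92, neither of which passed in limma (adjusted p = 0.17 and 0.224). Leaving out any single one of the remaining arrays gave a difference of -1.01 to -1. These fits did not pass either and were weaker, with limma's adjusted p between 0.405 and 0.55.

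The genes beside Klrb1 on chromosome 6 differed by less than Klrb1 did, a comparison of sizes with no test between genes. The targeted gene Atg7 is also on chromosome 6, as are Cd8a, Cd4 and Cd27 of the genes described. Whether sharing a chromosome with the altered Atg7 plays a part in their values was not tested, and the neighbours shown do not settle it. The 10 measured genes on each side of it, in RefSeq gene order of GRCm38.p6 and chosen after the value of Klrb1 was seen, include 4 genes and 1 pseudogene of the same receptor family and several Clec2 genes, which encode their ligands. Of these 20 neighbours, 0 passed in limma after adjustment and 3 were lower at an unadjusted p under 0.05, which are Gm10069, Klrb1c and Cd69. By that rule 2.73% of all genes were lower and 2.38% higher. The differences of the 20 neighbours ran from -0.32 to 0.21 (log2). Klrb1c, which encodes the NK1.1 antigen of C57BL/6 natural killer cells, read 4.10, 4.0 and 4.08 in Apc+/- and 3.90, 3.79 and 3.67 in Apc+/-Atg7-/- replicates 1, 2 and 3 (log2 level), a difference of -0.27 (SE 0.09, limma adjusted p = 0.856). Klrb1a, Klrb1b and Klrb1f differed by -0.02 (SE 0.09), -0.01 (SE 0.10) and 0.12 (SE 0.22) and did not pass. The Apc+/- means of Klrb1a, Klrb1b and Klrb1c were 3.68, 4.61 and 4.06, below the array medians of 6.43 to 6.56 (log2 level). At such low levels a fall could be missed, so their small differences say little beside that of Klrb1. Genes of this family are alike in sequence, and a probe set can find transcript of a relative, so the identity of the Klrb1 signal is uncertain to that extent.

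**Figure D2:**
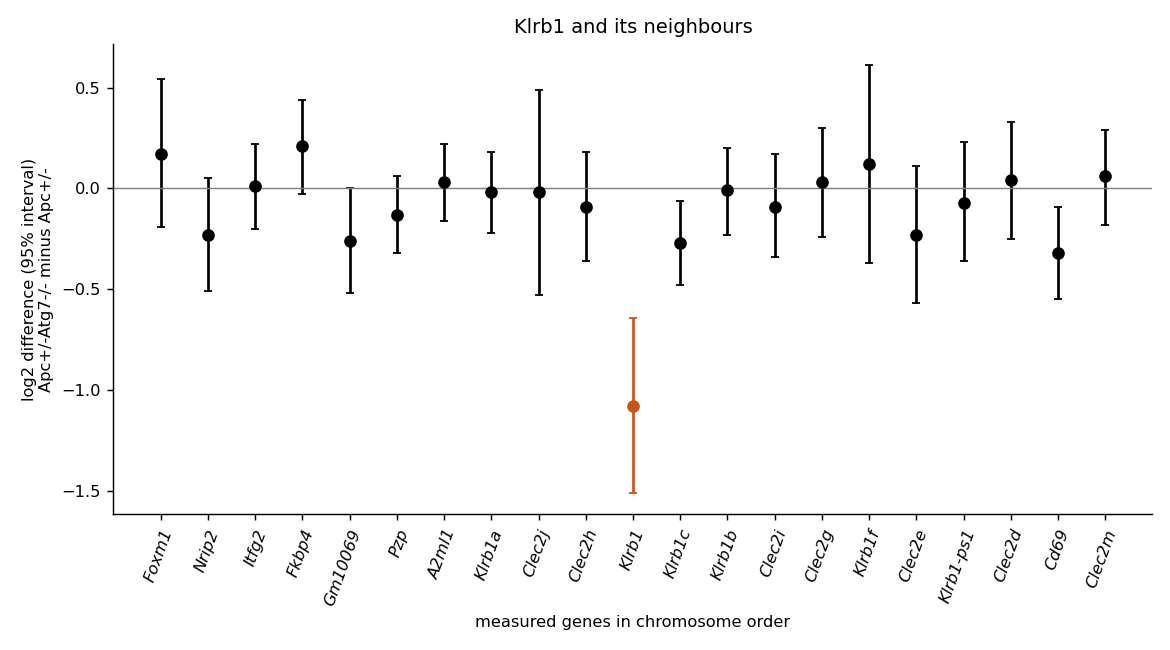
Log2 difference between genotypes with its 95% interval (vertical axis) for Klrb1 (orange) and the 10 measured genes on each side of it (black), placed by their order along the chromosome and not by distance. Klrb1 stands at -1.08, while its neighbours lie between -0.32 and 0.21.

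Both Clec2 genes on the list of ligands and receptors overlapped between genotypes. Clec2h, which encodes Clr-f, a ligand of NKR-P1G on intestinal epithelium, read 11.64, 11.56 and 11.68 in Apc+/- and 11.72, 11.61 and 11.27 in Apc+/-Atg7-/- replicates 1, 2 and 3 (log2 level), and its arrays overlapped. The log2 difference was -0.09 (SE 0.12, 95% interval -0.36 to 0.18, limma adjusted p = 0.991). Clec2d, the ligand of the inhibitory receptor encoded by Klrb1b, differed by 0.04 (SE 0.13, 95% interval -0.25 to 0.33).

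The T cell genes Cd3e, Cd8a and Cd4 differed little. Cd3e read 8.20, 8.04 and 8.09 in Apc+/- and 7.79, 8.12 and 7.92 in Apc+/-Atg7-/- replicates 1, 2 and 3 (log2 level), the male array being the lowest of the 6 and Apc+/-Atg7-/- replicate 2 lying within the Apc+/- range. Its difference was -0.17 (SE 0.11, 95% interval -0.41 to 0.07, limma adjusted p = 0.961), and -0.09 without the male array. The other CD3 chains differed by -0.22 (Cd3d, SE 0.14) and -0.15 (Cd3g, SE 0.17), neither passing. Cd8a read 8.17, 7.77 and 7.82 in Apc+/- and 7.78, 7.75 and 8.04 in Apc+/-Atg7-/-, with a single high array in each group. Its difference was -0.06 (SE 0.13, 95% interval -0.35 to 0.22, limma adjusted p = 0.994) and became 0.061 without Apc+/- replicate 1. The partner chain Cd8b1 differed by -0.15 (SE 0.13). Cd4 read 6.29, 6.27 and 6.27 in Apc+/- and 6.21, 6.20 and 6.24 in Apc+/-Atg7-/-. Its arrays did not overlap, but only 0.03 (log2) lay between the groups, and the difference of -0.06 (SE 0.08, limma adjusted p = 0.991) was below its standard error. The spread of Cd4 over the 6 arrays was among the smallest 0.677% of all genes.

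Itgae, Gzmb and Ccl5 ranged more widely among the arrays of each genotype than their means differed between genotypes. Itgae read 7.95, 7.40 and 7.56 in Apc+/- and 7.36, 7.88 and 7.94 in Apc+/-Atg7-/- replicates 1, 2 and 3 (log2 level), so the highest and lowest arrays both carry the replicate number 1. Its difference was 0.09 (SE 0.18, 95% interval -0.31 to 0.49, limma adjusted p = 0.994), with 0.27 without the male array, 0.25 without Apc+/- replicate 1 and -0.026 without Apc+/- replicate 2. Cdh1, which encodes its ligand E-cadherin, differed by -0.03 (SE 0.08). Gzmb had the widest range within a genotype, 1 log2 unit among the Apc+/- arrays at 9.05, 8.27 and 8.05, and read 8.86, 8.16 and 8.77 in Apc+/-Atg7-/-. In each genotype Gzmb was thus both high and low. Its difference was 0.15 (SE 0.25, 95% interval -0.42 to 0.71, limma adjusted p = 0.993), with 0.44 without Apc+/- replicate 1, 0.014 without the male array and -0.057 without Apc+/- replicate 3. Its spread over the 6 arrays exceeded that of 98.6% of genes. Ccl5 read 10.72, 10.34 and 10.30 in Apc+/- and 10.07, 10.60 and 10.59 in Apc+/-Atg7-/-, the male array being the lowest. Its difference was -0.03 (SE 0.16, 95% interval -0.40 to 0.33, limma adjusted p = 0.999) and turned to 0.14 without the male array and 0.10 without Apc+/- replicate 1.

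Gzma was steadier than Gzmb. It read 10.79, 10.51 and 10.67 in Apc+/- and 10.60, 10.45 and 10.52 in Apc+/-Atg7-/- (log2 level), overlapping between 10.51 and 10.60. The difference was -0.14 (SE 0.10, 95% interval -0.36 to 0.09, limma adjusted p = 0.967), and -0.07 without Apc+/- replicate 1. Serpinb6b, an inhibitor from the granzyme-inhibiting serpin family, differed by 0.09 (SE 0.15). The pore-forming protein of the same granules, Prf1, was not among the genes to be named by rule and is given after its value was seen, at 0.08 (SE 0.10).

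Xcl1 and Cd27 were lower on every Apc+/-Atg7-/- array, by less than Klrb1. Xcl1, the chemokine that draws dendritic cells bearing XCR1, read 6.93, 7.01 and 7.17 in Apc+/- and 6.73, 6.69 and 6.71 in Apc+/-Atg7-/- replicates 1, 2 and 3 (log2 level). The 3 Apc+/-Atg7-/- arrays lay within 0.04 of each other and 0.20 below the nearest Apc+/- array. The difference of -0.33 (SE 0.09, 95% interval -0.54 to -0.12), a level 1.25 times lower, did not pass in limma (adjusted p = 0.696). Its receptor gene Xcr1 differed the other way, by 0.16 (SE 0.09), without passing. Cd27 read 6.59, 6.55 and 6.42 in Apc+/- and 6.17, 6.22 and 6.31 in Apc+/-Atg7-/-, with 0.11 between the nearest arrays. Its difference of -0.29 (SE 0.09, 95% interval -0.49 to -0.08) did not pass in limma (adjusted p = 0.813). Cd70, which encodes the ligand of CD27, differed by 0.06 (SE 0.11). With any 1 array left out, Xcl1 stayed between -0.38 and -0.26 and Cd27 between -0.33 and -0.25, and neither passed.

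**Figure D3:**
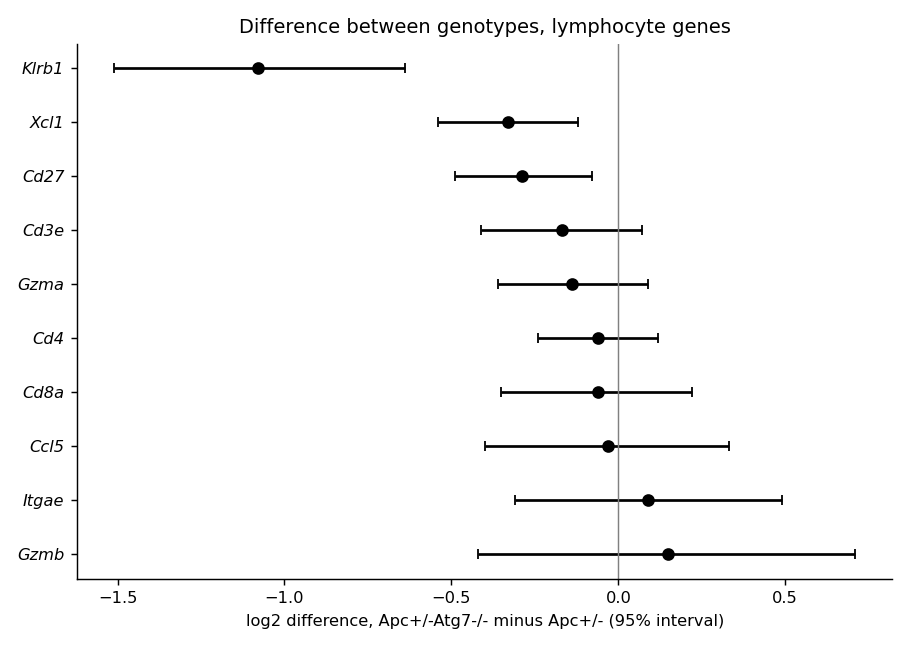
Log2 difference between genotypes (horizontal axis, Apc+/-Atg7-/- minus Apc+/-) for the 10 genes, with the 95% interval of each gene alone, not adjusted for the number of genes. The intervals of Klrb1, Xcl1 and Cd27 lie below 0, and those of the other 7 genes span it.

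One array was the highest for nearly all of these genes. Apc+/- replicate 1 was the highest of the 6 arrays for 9 of the 10 genes, all but Xcl1, whereas it was the highest for 14.6% of all genes. The male Apc+/-Atg7-/- replicate 1 was the lowest for 4 of the 10 and Apc+/-Atg7-/- replicate 2 for another 4, where they were the lowest for 16.2% and 13.9% of all genes. On average the 10 genes stood 0.29 above their own mean on Apc+/- replicate 1, 0.13 below it on the male array and 0.12 below it on Apc+/-Atg7-/- replicate 2 (log2 level). Among 74 further measured genes of T cells, natural killer cells and cytotoxicity, 30 were highest on Apc+/- replicate 1 and 31 lowest on the male array. Without Apc+/- replicate 1 the number of the 10 genes with a higher mean in Apc+/-Atg7-/- went from 2 to 4, the added ones being Cd8a and Ccl5. Without both arrays it was 4 as well, and Klrb1 differed by -1.06 (limma, adjusted p = 0.124) and Itgae by 0.43 (adjusted p = 0.287). The part of array quality and of sex in these differences was not tested further.

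**Figure D4:**
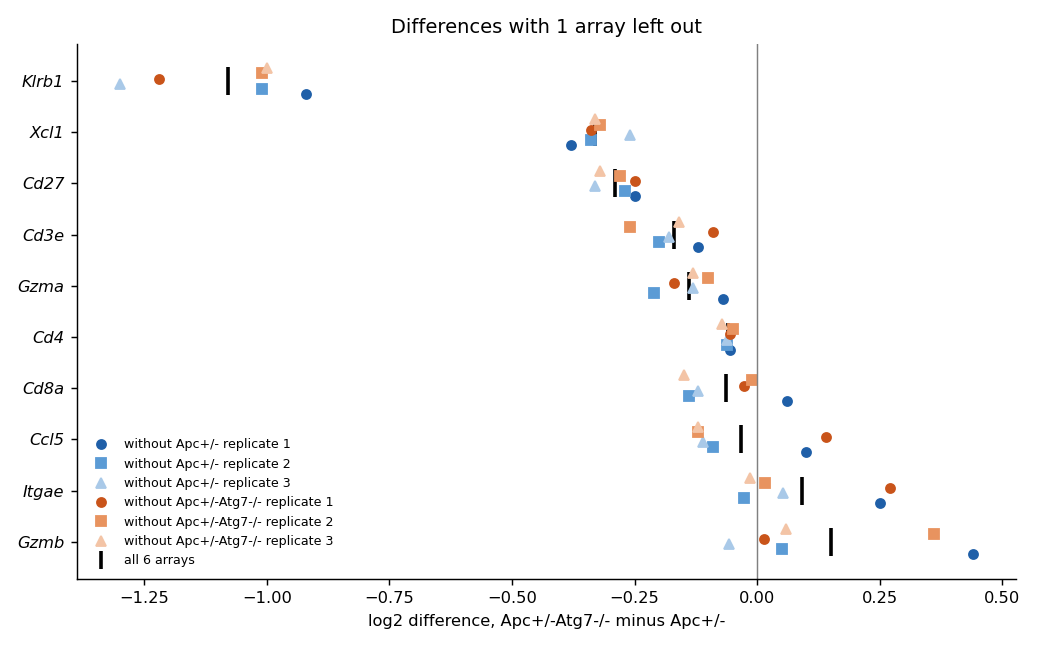
Log2 difference between genotypes (horizontal axis) with all 6 arrays (black bars) and with each array left out in turn (symbols). Klrb1 stays between -1.30 and -0.92, Xcl1 and Cd27 stay below 0, and Cd8a, Ccl5, Itgae and Gzmb fall on both sides of 0.

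Set against the CD3 chains, Klrb1 remained lower. For each array the mean log2 level of Cd3d, Cd3e and Cd3g was subtracted, which leaves the part of a difference that the CD3 chains do not share, and no test was run on it. The CD3 mean itself was 8.06 ± 0.18 in Apc+/- and 7.88 ± 0.20 in Apc+/-Atg7-/- (log2, SD, n = 3). Relative to it Klrb1 stood at 0.45, 0.55 and 0 in Apc+/- and at -0.05, -0.86 and -0.78 in Apc+/-Atg7-/- replicates 1, 2 and 3, a difference of -0.90 with the groups apart by 0.05. Itgae went the other way, at -0.32, -0.58 and -0.39 against -0.29, -0.16 and -0.02, a difference of 0.27 with the groups just apart. The other 8 genes overlapped, with differences from -0.15 (Xcl1) to 0.33 (Gzmb). Cd3e is itself part of the subtracted mean, so its difference of 0.01 is small by construction. The share of all genes with groups apart on this scale was not computed. With 14 T cell receptor and signalling genes as the reference in place of the CD3 chains, Klrb1 differed by -0.96 and Cd27 by -0.17 with the groups apart, and Itgae by 0.21 with the groups overlapping.

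The remaining genes of these lymphocytes showed small differences, and 0 of the 74 passed in limma after adjustment. At an unadjusted p under 0.05 there were 7 lower and 0 higher, where 2.73% of all genes were lower and 2.38% higher. With no overlap between the arrays of the genotypes, 11 of the 74 were lower and 1 higher, where 5.23% and 4.81% of all genes were. In the T cell receptor and signalling list this was 1 of 14, lower. By sign alone 56.8% of all genes were lower. Of 14 T cell receptor and signalling genes 12 were lower (median log2 difference -0.13, with -0.051 without the male array and -0.204 without Apc+/- replicate 3), among them Lat, an adaptor of the receptor (-0.32, SE 0.16), Skap1 (-0.23, SE 0.10) and Ptprc, the CD45 of all leukocytes (-0.21, SE 0.11). Of 20 genes of CD8 cells and intraepithelial lymphocytes 17 were lower (median -0.13, with -0.078 without Apc+/- replicate 1). Arrays did not overlap for 6 of the 20, all lower, where 5.23% of all genes were separated in that direction and 4.81% in the other. These 6 include the collagen-binding integrin Itga1 (-0.30, SE 0.09), the residency marker Cd69 (-0.32, SE 0.10) and Cd101 (-0.24, SE 0.10). Itga1 read 7.86, 7.78 and 7.84 in Apc+/- and 7.62, 7.48 and 7.49 in Apc+/-Atg7-/- replicates 1, 2 and 3 (log2 level), and did not pass in limma (adjusted p = 0.742). The brightest probe set of that list, Tyrobp, an adaptor of activating receptors, differed by -0.20 (SE 0.13).

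Cytotoxic effectors were close to balanced. Of 20 granule and effector genes 12 were lower and 8 higher (median -0.024, between -0.062 and 0.024 with 1 array left out, the latter without the male array), and 0 reached an unadjusted p under 0.05. Tnf differed by -0.22 (SE 0.12), Fasl, the death ligand, by -0.26 (SE 0.15), the chemokine Ccl3 by 0.16 (SE 0.11) and the lysosomal protein Lamp1 by -0.06 (SE 0.09). Of 12 natural killer receptor genes 9 were lower (median -0.058, with -0.096 without Apc+/-Atg7-/- replicate 2), where 56.8% of all genes were lower. Klre1 differed by -0.19 (SE 0.10), Ncr1 by -0.15 (SE 0.13) and Il2rb, a receptor chain for interleukins 2 and 15, by -0.06 (SE 0.11). The mean log2 level of the 12 was 4.64 to 4.67 in Apc+/- and 4.50 to 4.64 in Apc+/-Atg7-/-. This is below the array medians of 6.43 to 6.56, and at such low levels a difference could be missed. Of 8 genes of circulating and naive T cells 8 were lower (median -0.071, with -0.126, -0.119 and -0.127 without Apc+/- replicates 1, 2 and 3, and -0.132 and -0.112 without Apc+/-Atg7-/- replicates 2 and 3), led by the chromatin organiser Satb1 (-0.39, SE 0.11, limma adjusted p = 0.65) and the egress receptor S1pr1 (-0.30, SE 0.11). Bcl11b and Ccr7 differed by -0.17 (SE 0.10) and -0.07 (SE 0.10).

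Epithelial and other partners of these cells went both ways. Of 14 measured ligands, receptors and partners 6 were higher and 8 lower (median -0.05, which turned to 0.024 without Apc+/- replicate 1 and 0.019 without Apc+/-Atg7-/- replicate 3), and 0 passed in limma after adjustment. Btnl2, a butyrophilin-like protein of the gut epithelium, read 9.46, 9.18 and 9.11 in Apc+/- and 9.02, 8.84 and 8.78 in Apc+/-Atg7-/- replicates 1, 2 and 3 (log2 level), with no overlap and a difference of -0.38 (SE 0.12, limma adjusted p = 0.785). Btnl1, which supports the gamma delta T cells of the gut, differed by -0.12 (SE 0.13). Il15, the cytokine that sustains intraepithelial lymphocytes, ran over 1 log2 unit among the Apc+/- arrays (8.73, 8.11 and 7.68) and differed by -0.10 (SE 0.23), and its receptor chain Il15ra by -0.16 (SE 0.12). Ccl25, which draws T cells to the small intestine, differed by 0.03 (SE 0.10). Of the receptors for CCL5, Ccr1 differed by 0.27 (SE 0.12), with no overlap, and Ccr3 by -0.07 (SE 0.10). Il16, whose product binds CD4, was lower on every Apc+/-Atg7-/- array (-0.21, SE 0.08), without passing.

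**Figure D5:**
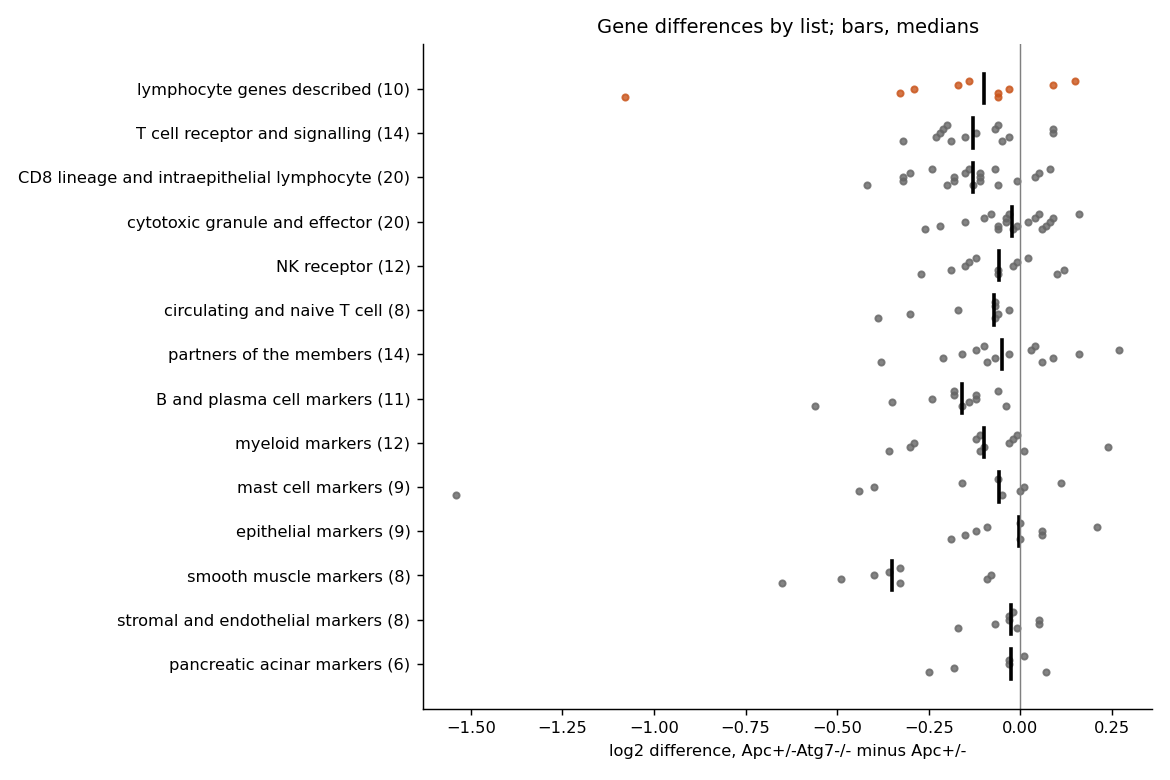
Log2 difference between genotypes (horizontal axis) of every measured gene by list, with the number of genes in brackets and the list median as a bar. The 10 genes (orange) have a median of -0.1 with Klrb1 at -1.08, and the medians of the T cell and CD8 lists stand at -0.13.

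Mean levels of B cell and mast cell markers were also separated between the genotypes, by narrow gaps. How often the mean of a list of genes is separated in these data was not tested. The mean log2 level of 11 B and plasma cell markers was 6.78 to 7.17 in Apc+/- and 6.69 to 6.75 in Apc+/-Atg7-/-. By sign 11 of 11 were lower, as were 56.8% of all genes. The B cell gene Ms4a1 read 6.45 on Apc+/- replicate 2 against 4.74 to 4.85 on the other 5 arrays. The mean log2 level of 9 mast cell markers was 5.60 to 5.88 in Apc+/- and 5.36 to 5.51 in Apc+/-Atg7-/-. By sign 6 of 9 were lower, close to the 56.8% of all genes. The median difference of the 9 was only -0.059, and Mcpt1 had by far the largest difference of them. Cpa3, Ms4a2 and Hdc were not lower, at 0, 0.01 and 0.11. Mcpt1, a protease of mucosal mast cells, read 6.88, 7.18 and 5.80 against 5.25, 5.18 and 4.84, so it was low on Apc+/- replicate 3, as Klrb1 was, and differed by -1.54 (SE 0.29, limma adjusted p = 0.174). Without Apc+/- replicate 3 it differed by -1.95 (SE 0.15) and passed in limma (adjusted p = 0.0129), the 1 mast cell marker to do so. With any other single array left out, Mcpt1 differed by -1.62 to -1.26 and did not pass (limma, adjusted p from 0.284 to 0.6). The mean of 12 myeloid markers overlapped (6.71 to 6.77 and 6.56 to 6.73), as did that of 8 smooth muscle markers (8.18 to 8.75 and 7.71 to 8.50), 8 stromal and endothelial markers (7.39 to 7.65 and 7.37 to 7.56) and 6 pancreatic acinar markers (5.80 on each Apc+/- array and 5.60 to 5.82). The part of these cells in the values of the 10 genes was not tested.

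Genes with the most like values over the 6 arrays were chosen for 3 of the 10. Likeness was measured as the root mean square difference of the 6 values after each gene was centred on its own mean, so small values mean like patterns. The nearest genes to Gzmb were Ceacam2 (0.11), Alpi (0.13), Eola1 (0.14), Cdkl3 (0.14) and Ephx1 (0.16). Alpi, the alkaline phosphatase of mature enterocytes, read 10.92, 10.45 and 10.21 in Apc+/- and 10.85, 10.40 and 10.96 in Apc+/-Atg7-/- replicates 1, 2 and 3, and like Gzmb it was lowest on Apc+/- replicate 3, while its highest array was Apc+/-Atg7-/- replicate 3 and that of Gzmb was Apc+/- replicate 1. The nearest to Cd3e were Olfr676 (0.03), Has2 (0.03), Hdac8 (0.04), Gpr151 (0.04) and Rcvrn (0.04), at which distance a spread as small as that of Cd3e matches many genes. For Klrb1, added after its value was seen, they were Clps (0.20), H2-Bl (0.21), Rdh7 (0.23), Defa24 (0.25) and Naaladl1 (0.25). Of these Clps, which encodes the pancreatic lipase cofactor colipase, fell by 1.03 on the log2 scale (SE 0.13, limma adjusted p = 0.0219), and Defa24, a Paneth cell defensin, fell by 1.02 (SE 0.13, adjusted p = 0.0221). H2-Bl, Rdh7 and Naaladl1 differed by -1.14, -0.77 and -0.84 and did not pass (limma, adjusted p = 0.167, 0.891 and 0.6). Lower values in all of them follow from their choice by likeness to Klrb1.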

How the data were processed

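Per the labels' protocols, total RNA was extracted with Trizol and biotinylated cDNA was hybridised to Affymetrix whole-transcript arrays. RMA and Partek are named, without versions, per the submitters' processing notes. The values, 1 per probe set and array (2.4 to 13.3), were taken as the log2 values the authors deposited after RMA, and the base was read from that range. Of 28853 probe sets, 21789 had 1 symbol in the platform annotation, giving 19938 genes, and where a gene had several probe sets (999 genes) the one with the highest mean stood for it. No filter was applied. Scanner files, detection calls and batches were not used here.

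All 6 arrays entered 1 two-sided fit per gene (lmFit and eBayes of limma 3.58.1, R 4.3.3, 9.7 degrees of freedom), with Benjamini-Hochberg adjustment over all genes. Since no label ties a sample to an animal, the p-values cover only sample-to-sample spread, which may be technical. The number of arrays limits the precision, and an exact permutation test of 3 against 3 cannot go below 0.1. The members, lists and alternatives were chosen with earlier results of these data known. Named were all 10 members, Cd3d, Cd3g, the list of partners, and from every other list the genes past the threshold, the 3 smallest p and the brightest gene. Genes named beyond that are said to be so or serve as relatives of a member, and markers stand as list means. Sequences are from RefSeq (GRCm38.p6). Plots used Python 3.11.15 (matplotlib 3.10.9).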

Additional observations from a re-analysis of the deposited data

How the results depend on the processing

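With the replicate number as a block, 44 genes passed in limma against 22 without it, and 1 of the 10 members passed, which was Klrb1 (-1.08, adjusted p = 0.0112). The labels do not say that the number pairs animals, and same-numbered arrays deviated together for numbers 1 and 3 (r = 0.15 and 0.24 across genes, which are not independent) but not 2 (-0.074), with 3 of 6 arrays correlating best with their own number, so this was not taken as a paired design. With 1 array left out, the count of members past the threshold ran from 0 to 1, that of members higher in Apc+/-Atg7-/- from 1 (without Apc+/- replicate 2 or 3 or Apc+/-Atg7-/- replicate 3) to 4 (without Apc+/- replicate 1), and that of all genes past the threshold from 2 (without the male array) to 27. The latter was 12 without Apc+/- replicate 1 or Apc+/-Atg7-/- replicate 3 and 13 without Apc+/- replicate 2. Leaving out Apc+/- replicate 1 and the male array together, an alternative chosen after seeing the data, gave 4 members higher and 10 genes. At an unadjusted p of 0.05 there were 3 members and 1019 genes, without variance moderation 0 genes and with every probe set 39.

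Directions turned for Cd8a without Apc+/- replicate 1 (0.061) and without both arrays (0.10), for Gzmb without Apc+/- replicate 3 (-0.057), and for Itgae without Apc+/- replicate 2 (-0.026) or Apc+/-Atg7-/- replicate 3 (-0.015). Ccl5 turned with array weights (0.067), without Apc+/- replicate 1 (0.10), without Apc+/-Atg7-/- replicate 1 (0.14) and without both (0.27). With 1 array left out the ranges were -0.15 to 0.061 (Cd8a), -0.057 to 0.44 (Gzmb), -0.026 to 0.27 (Itgae, with 0.43 without both arrays) and -0.12 to 0.14 (Ccl5). The cause was not tested. Cd3e, Cd4, Gzma, Xcl1, Cd27 and Klrb1 stayed lower under all alternatives run (a filter at the median level of all genes took Cd4 and Cd27 out). Klrb1 ran from -1.30 to -0.92 with adjusted p from 0.0112 to 0.963.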

Other observations

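Among the mast cell proteases, Mcpt4 read 5.30, 5.36 and 5.41 in Apc+/- and 4.91, 4.84 and 5.12 in Apc+/-Atg7-/- replicates 1, 2 and 3 (log2 level), with no overlap and a difference of -0.40 (SE 0.10, limma adjusted p = 0.484). Mcpt2 differed by -0.44 (SE 0.23) with overlap, and Kit, the stem cell factor receptor of mast cells, by -0.16 (SE 0.10). All 8 smooth muscle markers were lower in Apc+/-Atg7-/- by sign, as were 56.8% of all genes. None of these markers passed in limma, with Actg2 at -0.65 (SE 0.32) and Des at -0.49 (SE 0.19). The Apc+/-Atg7-/- replicate 2 array was the lowest of the 6 for each of the 8 markers, among them Actg2 (8.44) and Des (6.84). Without that array the median log2 difference of the list went from -0.349 to -0.071. The plasma cell gene Jchain differed by -0.04 (SE 0.10) and Sdc1 by -0.24 (SE 0.09). Clec9a, a marker of the dendritic cells that bear XCR1, differed by 0.24 (SE 0.12) and Cd209a by -0.36 (SE 0.14), neither passing.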
